A study of Mus musculus with 12 samples.

Results

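The RNA-seq counts of all 12 libraries were used as a 2 x 2 design to ask in which genes the response of C22 cells to TGF-β1 depended on Pdcd5. C22 is a conditionally immortalized mouse club cell line. The 4 groups, with 3 libraries each, were cells given negative control siRNA (NC), the same cells after 24 h with TGF-β1 at 20 ng/ml (NC + TGF-β1), cells given siRNA against Pdcd5 (siPdcd5), and knockdown cells treated in the same way (siPdcd5 + TGF-β1). All cells were thus transfected with an siRNA, and they carry a temperature-sensitive T-antigen that the study switched off by a move to 37 °C before the experiments. The quantity described is the interaction, the log2 TGF-β1 response in siPdcd5 cells minus the log2 response in NC cells, so that a positive value means a larger rise or a smaller fall after knockdown. It was estimated for 12425 of 23282 listed genes and rests on all 12 of 12 libraries.

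TGF-β1 binds a pair of receptor kinases that phosphorylate Smad2 and Smad3, and these enter the nucleus with Smad4 to raise or lower transcription of target genes. In epithelial cells the cytokine is known to raise matrix and cytoskeletal genes and to lower Id genes, which are targets of the related BMP pathway. PDCD5 is a small protein first described in apoptosis, and the study examined it as a partner of Smad3 and β-catenin. A change that knockdown makes equally with and without TGF-β1 leaves the interaction at 0, and only an unequal change moves it.

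The knockdown was present at similar size with and without TGF-β1. Pdcd5 was at 73.5, 65.8 and 65.1 CPM (read counts scaled to a common library size) in NC, at 66.3, 69.7 and 67.6 CPM in NC + TGF-β1, at 21.2, 20.0 and 22.1 CPM in siPdcd5 and at 24.1, 21.8 and 26.4 CPM in siPdcd5 + TGF-β1. All 6 knockdown libraries lay below all 6 control libraries. Its interaction was 0.20 ± 0.14 (log2 ± SE; 95% interval −0.10 to 0.50).

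Libraries held 12809857 to 17714828 counts. The club cell label was not borne out by its usual markers: of 8 club cell markers, Scgb1a1, Scgb3a1, Scgb3a2, Cyp2f2, Cldn10 and Gabrp stayed under 1 CPM in every library, Krt15 reached at most 1.40 CPM, and Aldh1a1 made up nearly all of the summed level, which was 547 to 556 CPM in NC, 231 to 245 in NC + TGF-β1, 293 to 327 in siPdcd5 and 155 to 166 in siPdcd5 + TGF-β1. The summed level of 7 fibroblast markers, mostly Col1a1, was 3749 to 3985 CPM in NC, 7420 to 8042 in NC + TGF-β1, 2537 to 3120 in siPdcd5 and 5590 to 5944 in siPdcd5 + TGF-β1. That of 5 alveolar type 1 cell markers, mostly Pdpn, was 437 to 493, 259 to 409.5, 318 to 467 and 363 to 397 CPM in the same order. That of 5 basal cell markers, nearly all Krt14, was 10.2 to 12.05, 169 to 210, 1.99 to 4.51 and 75.3 to 88.0 CPM, with Krt5 and Trp63 at 3 counts or fewer. Goblet cell and endothelial markers summed to under 3 CPM, and those of alveolar type 2 cells, ciliated cells and leukocytes rested on 1 gene each. The NC + TGF-β1 replicate 2 and siPdcd5 replicate 1 libraries stood apart from their groups. The SD of their log2 deviations from the group mean over 9128 genes was 0.28 and 0.22, against 0.10 to 0.21 in the other 10. Across these genes the deviations of the 2 libraries ran together, with r = 0.792, which is given as a description since genes are not independent replicates. Both groups enter the interaction with the same sign, so a deviation that the 2 libraries share adds to it. Below, the value without both is given for genes with an unadjusted p under 0.05 in either fit where it differs from that with all libraries by more than 1.5 times.

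No gene passed an adjusted p of 0.05 for the interaction in edgeR's quasi-likelihood F test, with p-values adjusted by the Benjamini-Hochberg method here and below, 0% of 12425. At an unadjusted p under 0.05 there were 638 genes (5.13%), of which 294 were positive (2.37%) and 344 negative (2.77%). Under quantile normalization with limma-trend the split was 385 positive and 249 negative, so the balance of signs depends on the scaling. If no response depended on Pdcd5 and p-values were evenly spread, 621 would be found. The excess was as small at stricter levels, with 131 genes at p under 0.01 where 124 are given by an even spread and 16 at p under 0.001 where 12.4 are given. DESeq2's Wald test on the same counts gave 15 genes with an adjusted p under 0.05, 0.134% of the 11220 genes for which it gives one. These were Lxn, Igf1, Spag7, Vegfc, Id2, Itpripl2, Adamts1, Lrrcc1, Wisp2, Sod3, Ccnd3 and Cyp26b1 with positive and Tmem158, Fam101b and Rhou with negative interactions. In 362 genes (2.91%) the ranges of the response in the 2 arms, from the lowest treated minus the highest untreated library to the highest treated minus the lowest untreated library in log2 CPM, did not overlap, and 298 of them were among the 638.

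**Figure D1:**
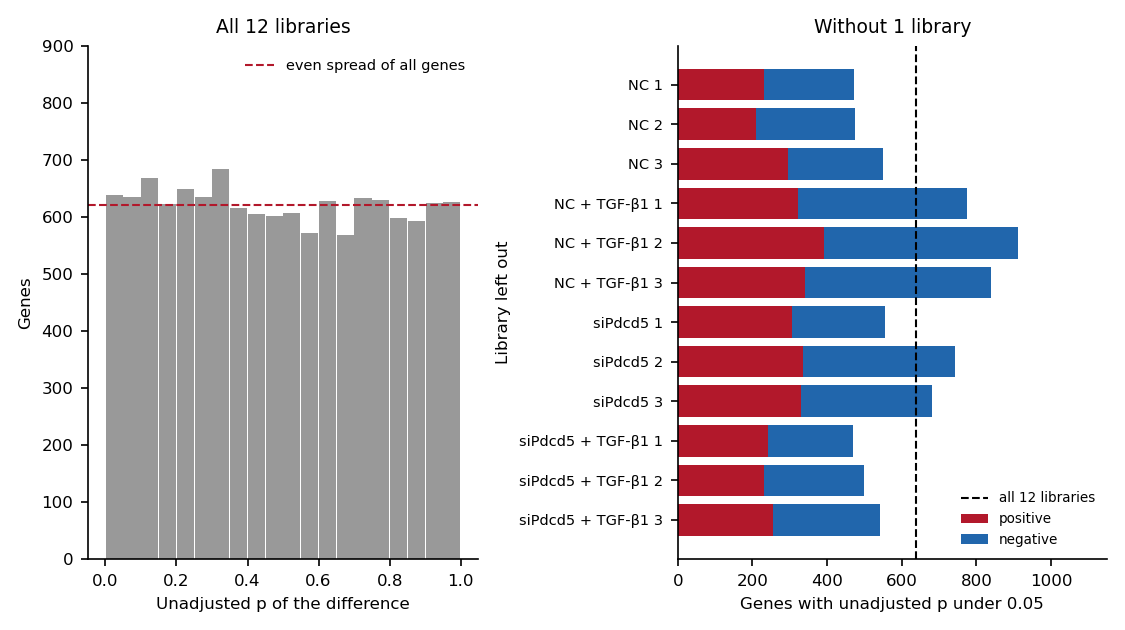
The left panel shows the number of genes in each of 20 equal bins of the unadjusted p of the interaction, with all 12 libraries, and the dashed line marks an even spread. The first bin holds 638 genes against 621 on the line. The right panel shows how many genes had an unadjusted p under 0.05 when the named library was left out, split by sign, with the dashed line at 638 for all 12 libraries. The bars run from 470 to 911 and are longest without an NC + TGF-β1 library.

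The 24 genes described first are the 12 positive and 12 negative interactions with the smallest p among genes whose mean log2 CPM reached 3, and the other DESeq2 genes, Ccnd3 and Cyp26b1, are added to them. Since they were ranked by the interaction itself, their sizes are a description of the extreme of 12425 genes and will on average be too large. In each of these 26 genes the response ranges of the 2 arms did not overlap, which the ranking also favours.

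**Figure D2:**
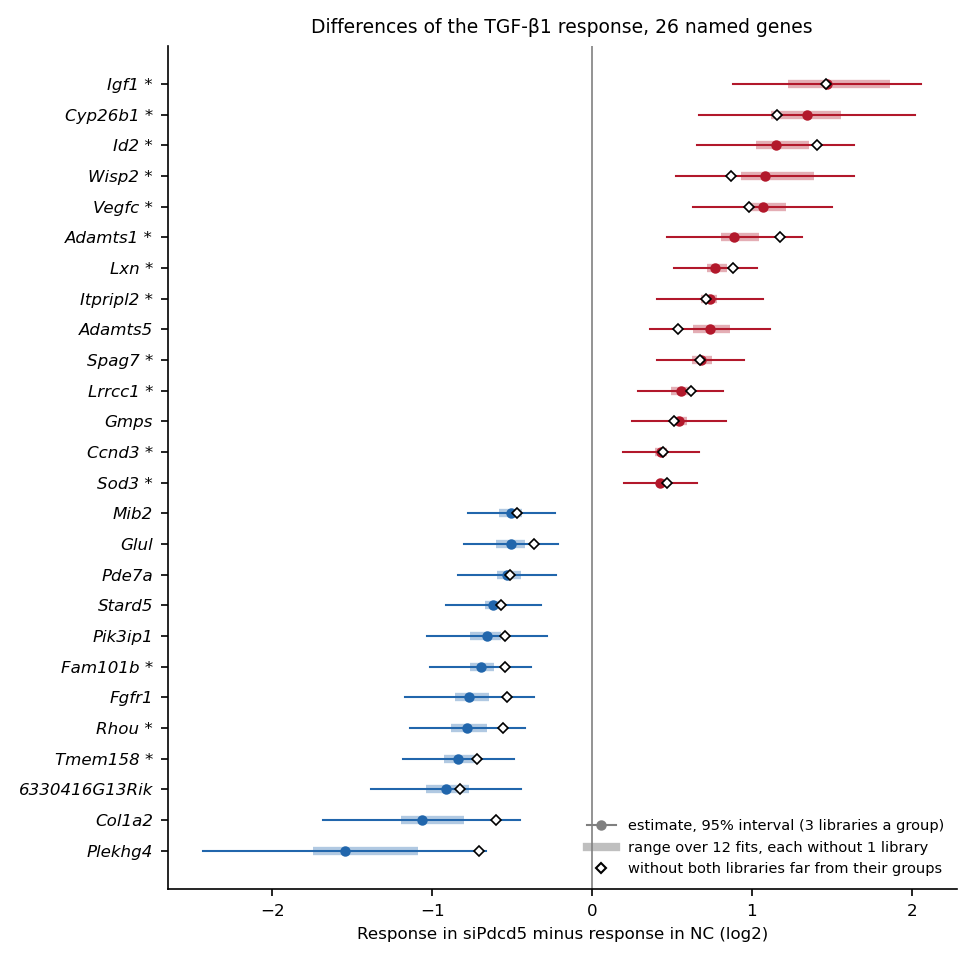
Interaction of the 26 genes on the log2 scale, positive in red and negative in blue. Points with thin lines give the estimate and its 95% interval from edgeR, thick bands the range over 12 fits that each leave out 1 library, and open diamonds the value without NC + TGF-β1 replicate 2 and siPdcd5 replicate 1. Genes with an asterisk passed DESeq2's adjusted p of 0.05. No band crosses 0, and the diamonds of Plekhg4 and Col1a2 lie the farthest from their points, at −0.71 and −0.60.

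Lxn, which encodes latexin, an inhibitor of carboxypeptidases, had the smallest p of all genes. Its level was 186, 186 and 177 CPM in NC, 62.9, 74.7 and 66.6 CPM in NC + TGF-β1, 89.7, 84.1 and 87.6 CPM in siPdcd5 and 57.6, 54.7 and 53.5 CPM in siPdcd5 + TGF-β1. The 4 groups did not overlap. As in all values from bulk RNA here, fewer cells with a transcript and less transcript per cell cannot be told apart. TGF-β1 lowered Lxn in both arms, by a log2 change of −1.43 in NC and −0.66 in siPdcd5. The interaction was 0.77 ± 0.12 (log2 ± SE; 95% interval 0.51 to 1.03; adjusted p = 0.213 in edgeR's quasi-likelihood test, and adjusted p = 3.99e-06 in DESeq2). Lxn lies on chr3:67457998-67463926 (GRCm38, minus strand), where its exons overlap those of Gfm1 on the other strand. The use of strand in counting is not stated, and Gfm1 itself had an interaction of −0.14 ± 0.28 (log2 ± SE).

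Id2, a helix-loop-helix protein that binds other such factors and keeps them off DNA, fell in both arms. It was at 137, 124 and 133 CPM in NC and at 6.45, 9.19 and 6.07 CPM in NC + TGF-β1. In knockdown cells it was at 79.3, 68.0 and 82.2 CPM before and at 10.6, 10.3 and 7.13 CPM after TGF-β1. The untreated groups were apart, with every siPdcd5 library below every NC library, while the treated groups overlapped. The fall was −4.18 in NC and −3.03 in siPdcd5 on the log2 scale, an interaction of 1.15 ± 0.23 (log2 ± SE; adjusted p = 0.407 in edgeR's quasi-likelihood test, 0.00374 in DESeq2).

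Other genes of the BMP and SMAD branch stood on the same side. Of 9 tested Id and BMP-SMAD target genes, 8 had a positive interaction and the median was 0.31, against a median of −0.03 and 5624 of 12425 positive over all genes. Only Id2 and Id1 (0.40 ± 0.16) had an unadjusted p under 0.05. Atoh8 (0.46 ± 0.28), Bmp4 (0.31 ± 0.21) and Id3 (0.22 ± 0.28) were positive with intervals that include 0, and Smad5 was at −0.20 ± 0.12 (each log2 ± SE). Without the 2 libraries that stand apart, Id3 was at 0.76 (adjusted p = 0.0108 in edgeR's quasi-likelihood test), while Atoh8 was at 0.15 and Bmp4 at 0.17. The direction was kept, but the size of these 3 genes depends on the pair. All 6 of Id1, Id2, Id3, Atoh8, Bmp4 and Smad9 had negative responses in both arms, of −1.38 to −4.18 in NC and −1.07 to −3.03 in siPdcd5. The list was drawn up with earlier results of these data known, so that its direction is no independent evidence.

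The inhibitory SMADs were among the TGF-β feedback genes with an unadjusted p under 0.05. Smad7, which blocks the TGF-β receptor and is itself raised by the pathway, was at 15.9, 14.2 and 13.7 CPM in NC and 23.6, 24.1 and 20.8 CPM in NC + TGF-β1. It was at 10.1, 10.9 and 11.0 CPM in siPdcd5 and 27.2, 25.5 and 24.0 CPM in siPdcd5 + TGF-β1. Its response was 0.64 in NC and 1.26 in siPdcd5, an interaction of 0.62 ± 0.16 (log2 ± SE; 95% interval 0.27 to 0.97). Smad6, which acts mainly on BMP receptors, fell by 1.28 in NC and by 0.56 in siPdcd5 on the log2 scale, an interaction of 0.72 ± 0.20 (log2 ± SE; 95% interval 0.30 to 1.14). In both genes the siPdcd5 libraries lay below the NC libraries before treatment, and the levels after treatment differed by less (0.17 for Smad7 and 0.05 for Smad6 as log2 differences). The receptor-activated Smad2 and Smad3 had interactions of 0.01 ± 0.14 and −0.23 ± 0.13, and Pmepa1, a feedback gene that TGF-β1 raised by a log2 response of 2.72 in NC and 2.67 in siPdcd5, one of −0.05 (log2), which was −0.24 without the 2 libraries that stand apart.

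Promoter sequences are shown for Lxn and Id2, positive, and Col1a2, negative, from the RefSeq table of GRCm38.p6, so that the letters can be compared between genes with opposite interactions. Each runs 5′ to 3′ on the strand of the gene, from 250 bases before to 50 bases after its start: chr3:67463858-67464157 (minus strand), chr12:25096043-25096342 (minus strand) and chr6:4505368-4505667 (plus strand). Capitals mark CAGAC, the core of a SMAD3/SMAD4 site, or GTCTG, the same core on the other strand.
Lxn: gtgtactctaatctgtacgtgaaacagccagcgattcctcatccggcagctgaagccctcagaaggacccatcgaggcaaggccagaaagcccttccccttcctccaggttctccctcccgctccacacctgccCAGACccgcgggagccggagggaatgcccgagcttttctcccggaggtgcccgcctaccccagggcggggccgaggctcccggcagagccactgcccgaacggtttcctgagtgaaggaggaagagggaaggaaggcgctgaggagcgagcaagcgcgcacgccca
Id2: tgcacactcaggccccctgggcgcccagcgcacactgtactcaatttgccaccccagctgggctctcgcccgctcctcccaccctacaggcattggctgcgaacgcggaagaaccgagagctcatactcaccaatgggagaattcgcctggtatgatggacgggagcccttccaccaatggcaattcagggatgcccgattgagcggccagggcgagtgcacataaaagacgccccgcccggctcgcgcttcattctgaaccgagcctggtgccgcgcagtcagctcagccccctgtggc
Col1a2: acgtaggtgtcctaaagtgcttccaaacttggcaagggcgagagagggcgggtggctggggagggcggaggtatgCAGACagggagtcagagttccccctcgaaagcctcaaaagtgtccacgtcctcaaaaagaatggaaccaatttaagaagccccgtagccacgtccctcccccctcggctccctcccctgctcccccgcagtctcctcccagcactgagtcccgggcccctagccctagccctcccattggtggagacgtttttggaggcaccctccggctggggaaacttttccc
The core occurs once in the Lxn and once in the Col1a2 window and not in that of Id2. Of the 24 ranked genes, 17 had a promoter in the table, of which 10 (58.8%) held CAGAC on either strand, against 53.2% of 27025 genes. CTTTG, the core of a TCF/LEF site, was in 8 (47.1%) against 57.4%, and TGACTCA, the AP-1 site, in 0 against 5.95%. A match to such short letters is a description and no site.

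Igf1, Vegfc and Wisp2, all among the ranked positive interactions, encode secreted proteins and are described together. No list of growth factor genes was counted. Igf1, insulin-like growth factor 1, was at 5.93, 7.86 and 8.44 CPM in NC and at 54.5, 57.9 and 57.5 CPM in NC + TGF-β1. In knockdown cells it was at 1.11, 1.65 and 0.708 CPM and, after TGF-β1, at 26.0, 23.8 and 25.4 CPM. It rose in both arms, by 2.93 in NC and 4.40 in siPdcd5 on the log2 scale, an interaction of 1.47 ± 0.27 (log2 ± SE; 95% interval 0.88 to 2.06; adjusted p = 0.346 in edgeR's quasi-likelihood test, 0.000505 in DESeq2). The siPdcd5 libraries held 11 to 30 counts of Igf1, so the fold rise in that arm rests on few reads. Knockdown cells had less Igf1 than NC cells both without TGF-β1 (log2 difference −2.64) and with it (−1.17).

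Vegfc, a ligand for lymphatic growth, was at 10.1, 10.9 and 10.2 CPM in NC and 22.6, 19.6 and 17.7 CPM in NC + TGF-β1, and at 4.43, 5.02 and 6.12 CPM in siPdcd5 and 20.1, 20.1 and 22.5 CPM in siPdcd5 + TGF-β1. The untreated groups were apart and the treated groups overlapped. Its response was 0.94 in NC and 2.01 in siPdcd5, an interaction of 1.07 ± 0.20 (log2 ± SE; adjusted p = 0.346 in edgeR's quasi-likelihood test, 0.00374 in DESeq2). Wisp2 (Ccn5), a CCN protein without the C-terminal domain of its family, showed a like pattern at 6.16 to 7.71 CPM in NC, 18.9 to 22.9 CPM in NC + TGF-β1, 2.29 to 4.19 CPM in siPdcd5 and 18.7 to 21.4 CPM in siPdcd5 + TGF-β1. Its interaction was 1.08 ± 0.26 (log2 ± SE; adjusted p = 0.736 in edgeR's quasi-likelihood test, 0.0459 in DESeq2).

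**Figure D3:**
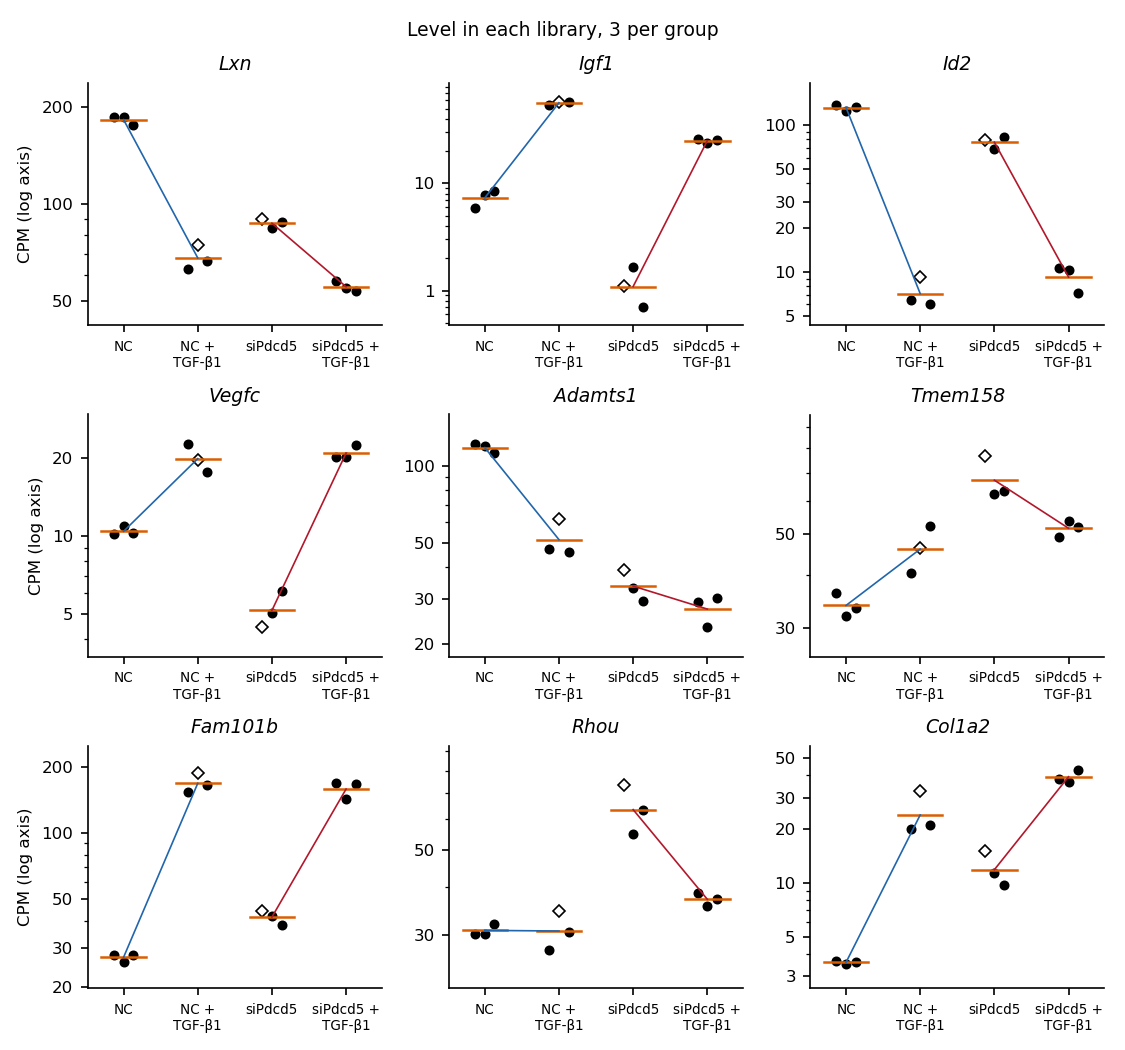
Level of 9 genes in each library, in CPM on a log axis, with 3 libraries per group. Orange bars are geometric means, and lines join the untreated to the treated group in NC (blue) and siPdcd5 (red) cells, so that unequal slopes show the interaction. Open diamonds mark NC + TGF-β1 replicate 2 and siPdcd5 replicate 1. The red line is flatter for Lxn, Id2, Adamts1, Fam101b and Col1a2, steeper for Igf1 and Vegfc, and slopes down for Tmem158 and Rhou, where the blue line rises or is level.

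Secreted proteases of the ADAMTS family, which cleave proteoglycans such as versican and aggrecan, had smaller falls in knockdown cells. Adamts1 was at 122, 119.6 and 112 CPM in NC, 47.3, 62.0 and 46.1 CPM in NC + TGF-β1, 39.1, 33.2 and 29.6 CPM in siPdcd5 and 29.3, 23.2 and 30.2 CPM in siPdcd5 + TGF-β1. The knockdown groups overlapped each other, and both lay below the other groups. The response was −1.19 in NC and −0.30 in siPdcd5, an interaction of 0.89 ± 0.20 (log2 ± SE; adjusted p = 0.558 in edgeR's quasi-likelihood test, 0.0264 in DESeq2). Adamts5 was at 315 to 329.9 CPM in NC, 106 to 142 CPM in NC + TGF-β1, 98.4 to 139 CPM in siPdcd5 and 72.1 to 77.8 CPM in siPdcd5 + TGF-β1, with an interaction of 0.74 ± 0.18 (log2 ± SE). Adamts9, with negative responses in both arms, had an interaction of 0.56 ± 0.27 with a 95% interval of −0.01 to 1.14, and Adamts4, which TGF-β1 raised, one of −1.07 ± 0.50 (log2 ± SE). The signs thus differed within the family.

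Col1a2, a chain of type I collagen, was the only matrix gene among the 12 ranked negative interactions. It was at 3.65, 3.49 and 3.61 CPM in NC, 20.0, 32.9 and 21.1 CPM in NC + TGF-β1, 15.1, 11.3 and 9.79 CPM in siPdcd5 and 38.4, 37.0 and 43.0 CPM in siPdcd5 + TGF-β1. All groups were apart, and knockdown cells had more Col1a2 at either state. The rise was 2.78 in NC and 1.72 in siPdcd5, an interaction of −1.07 ± 0.29 (log2 ± SE; adjusted p = 0.736 in edgeR's quasi-likelihood test, 0.218 in DESeq2). NC + TGF-β1 replicate 2 and siPdcd5 replicate 1 held the highest value of their groups, and without them the interaction was −0.60. The partner chain Col1a1 had an interaction of 0.05 ± 0.14, Col3a1 one of 0.13 ± 0.13 and Col5a1 one of −0.06 ± 0.12 (log2 ± SE), with 95% intervals inside −0.31 to 0.41.

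The interactions of the matricellular genes that the study names did not share a direction. The study compared knockdown with control among TGF-β1-treated cells, which is another contrast. There the log2 differences were all negative, at −0.75 for Postn, −0.86 for Tnc, −0.95 for Ctgf and −1.63 for Thbs2. Their adjusted p-values in edgeR's quasi-likelihood test were 0.0161, 0.00163, 0.235 and 0.114 in this order. Without TGF-β1 the log2 differences between knockdown and control were −0.07 for Postn, −1.21 for Tnc, −1.30 for Ctgf and −0.12 for Thbs2. Adjusted p-values of these differences in the same test were 0.921, 0.000142, 0.0881 and 0.956. Tnc and Ctgf were thus lower after knockdown at rest as well, by a larger log2 difference than with TGF-β1. Postn, periostin, was at 3.65, 3.41 and 3.69 CPM in NC, 74.8, 99.2 and 85.5 CPM in NC + TGF-β1, 3.03, 4.47 and 2.64 CPM in siPdcd5 and 55.6, 45.4 and 53.2 CPM in siPdcd5 + TGF-β1. The treated groups were apart and the untreated groups overlapped. The interaction was −0.68 ± 0.25 (log2 ± SE; 95% interval −1.22 to −0.14; adjusted p = 0.949 in edgeR's quasi-likelihood test), and it stayed under an unadjusted p of 0.05 in 11 of 12 fits that leave out 1 library, with −0.41 without siPdcd5 replicate 2. Tnc, tenascin C, had an interaction of 0.35 ± 0.17 (95% interval −0.02 to 0.72), Ctgf, connective tissue growth factor, one of 0.35 ± 0.52 (−0.76 to 1.46) and Thbs2, thrombospondin 2, one of −1.51 ± 0.83 (−3.29 to 0.28; each log2 ± SE). Ctgf was at 0.03 without siPdcd5 + TGF-β1 replicate 3, at 0.90 without NC + TGF-β1 replicate 2 and at 0.98 without both libraries that stand apart, and Thbs2 at −2.27 without siPdcd5 + TGF-β1 replicate 1 (log2). Ctgf ranged from 140 to 410.4 CPM within NC + TGF-β1 and Thbs2 held at most 30 counts in a library, and the intervals of both cover changes in either direction. The exons of Tnc and Ctgf overlap those of 8030451A03Rik and Gm15270, respectively, on the other strand.

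Tmem158 had the smallest p of the negative interactions. This membrane protein, named for its induction by Ras, was at 36.2, 32.0 and 33.5 CPM in NC and 40.5, 46.3 and 52.3 CPM in NC + TGF-β1. In knockdown cells it went the other way, from 76.8, 62.4 and 63.4 CPM to 49.3, 53.7 and 52.1 CPM. Both untreated groups were apart from each other, and the treated groups overlapped. The response was 0.45 in NC and −0.38 in siPdcd5, an interaction of −0.84 ± 0.16 (log2 ± SE; adjusted p = 0.346 in edgeR's quasi-likelihood test, 0.00542 in DESeq2).

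Rhou, an atypical small GTPase, was level in NC cells and fell in knockdown cells. It was at 30.3, 30.3 and 32.2 CPM in NC, 27.5, 34.6 and 30.6 CPM in NC + TGF-β1, 73.7, 54.8 and 63.5 CPM in siPdcd5 and 38.7, 35.6 and 37.3 CPM in siPdcd5 + TGF-β1. Its interaction was −0.78 ± 0.17 (log2 ± SE; adjusted p = 0.507 in edgeR's quasi-likelihood test, 0.0264 in DESeq2). Fam101b (Rflnb in the annotation), a filamin-binding protein of the actin cytoskeleton, rose from 26.0 to 27.9 CPM to 154 to 189 CPM in NC, and from 38.2 to 44.4 CPM to 143 to 169 CPM in siPdcd5. Its log2 response was 2.64 in NC and 1.94 in siPdcd5, with the treated groups overlapping.

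The other negative interactions ranged from −0.50 to −1.55. Plekhg4, a guanine nucleotide exchange factor, had the largest at −1.55 ± 0.41 (log2 ± SE) but also the widest spread. It was at 16.2, 33.4 and 15.6 CPM in NC + TGF-β1 and at 35.7, 18.0 and 20.1 CPM in siPdcd5, where the highest value of either group was one of the 2 libraries that stand apart, and without both the interaction was −0.71. Its exons overlap those of Kctd19 on the other strand, which had an interaction of −1.12 ± 0.45 (log2 ± SE), and the reads of the 2 genes cannot be told apart here. Fgfr1, a fibroblast growth factor receptor, rose by 0.88 in NC with a response of 0.11 in siPdcd5, whose untreated libraries (43.8 to 55.6 CPM) already lay near the treated NC level (42.8 to 54.1 CPM). Pde7a, a cAMP phosphodiesterase, and 6330416G13Rik (Tmem268 in the annotation) rose by 1.30 and 1.56 in NC and by 0.77 and 0.65 in siPdcd5. Pik3ip1, an inhibitor of PI3 kinase, and Glul, glutamine synthetase, fell by 0.93 and 1.40 in NC and by 1.59 and 1.90 in siPdcd5 (log2). The exons of Fgfr1, Pde7a, Pik3ip1 and Glul also overlap those of other annotated genes.

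Among the other positive interactions, Sod3, the extracellular superoxide dismutase, was the most tightly measured. It was at 91.9, 88.0 and 94.8 CPM in NC, 119.5, 127 and 121 CPM in NC + TGF-β1, 68.6, 68.0 and 71.0 CPM in siPdcd5 and 128, 123 and 122 CPM in siPdcd5 + TGF-β1. The response was 0.42 in NC and 0.85 in siPdcd5, an interaction of 0.43 ± 0.11 (log2 ± SE; adjusted p = 0.736 in edgeR's quasi-likelihood test, 0.0261 in DESeq2). Itpripl2 had a response of 0.16 in NC and rose by 0.91 in siPdcd5. Lrrcc1, a centrosomal protein, fell by 0.67 in NC with a response of −0.12 in siPdcd5 (log2). Its exons overlap those of Gm17119 on the same strand, so that its reads are uncertain. Ccnd3, cyclin D3, with an interaction of 0.43 ± 0.11, shares exon sequence with Bysl on the other strand, whose interaction was 0.37 ± 0.11 (log2 ± SE), and has a pseudogene in the annotation, so that its reads are uncertain. Cyp26b1, which breaks down retinoic acid, had only 40 to 115 counts per library and an interaction of 1.35 ± 0.32 (log2 ± SE).

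A common feature of the ranked genes was a knockdown difference that was larger at rest. In 20 of the 24 genes the log2 difference between siPdcd5 and NC cells was larger in size without TGF-β1 than with it, as in 51.6% of all 12425 genes. All 12 genes with a positive interaction had a lower level after knockdown when TGF-β1 was absent, and all 12 with a negative interaction a higher one, with log2 differences from 0.05 in Pik3ip1 to −2.64 in Igf1. The untreated groups enter both quantities, so this is a description of the genes ranked and not a separate finding.

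The direction of an interaction on the log2 scale need not hold for the change in CPM. Of the 65 genes named by rule, 8 had an interaction of the other sign in CPM: Igf1, Col1a2, Fbln5, Col11a1, Lox, Chac1, Ctgf and Tnc. Igf1 gained 49.2 CPM in NC and 23.9 CPM in siPdcd5 cells, and Col1a2 gained 21.1 and 27.4 CPM. For these genes the fold response and the gain in reads gave opposite answers, because the untreated levels differed between the arms. For the other 24 of the 26 genes, both scales gave the same sign.

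**Figure D4:**
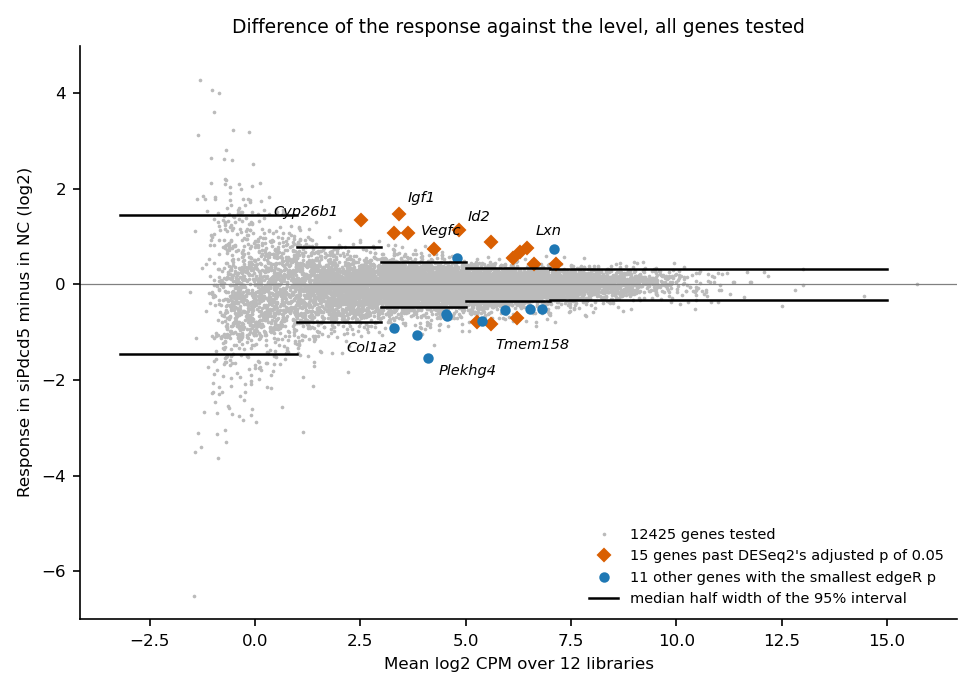
Interaction (log2) of all 12425 genes tested against their mean log2 CPM over 12 libraries. Orange diamonds are the 15 genes past DESeq2's adjusted p of 0.05, blue points the 11 other ranked genes, and black lines the median reach of the 95% interval to either side in each range of levels. The lines narrow from 1.45 below a log2 CPM of 1 to 0.32 at 7 and above, and the named genes lie outside them.

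The share of genes with an unadjusted p under 0.05 was compared between lists and the 5.13% of all genes, as counts without a test. The 4 matrix lists together had 85 tested genes, of which 9 were positive and 7 negative at an unadjusted p under 0.05 (18.8%), with a median of −0.02, so that matrix genes were spread to both sides. Among matrix crosslinking and remodelling genes, 6 of 25 had a p under 0.05: Adamts1, Adamts5 and Lox (0.45 ± 0.19), the lysyl oxidase, were positive and Mmp2 (−0.25 ± 0.11), Timp1 (−0.35 ± 0.15) and Adamts4 negative (log2 ± SE). Lox was at 0.21 without the 2 libraries that stand apart and held an unadjusted p under 0.05 in 6 of the 12 fits that leave out 1 library, and Mmp2, Timp1 and Adamts4 held one in 4 each. Adamts4 was at −0.70 without NC replicate 2. Timp1 was at −0.49 without the pair (adjusted p = 0.0343 in edgeR's quasi-likelihood test). Among glycoproteins, proteoglycans and laminins, 4 of 24 did, with Fbn1, fibrillin 1 (0.67 ± 0.19), Fn1, fibronectin (0.34 ± 0.13), and Lamb1 (0.31 ± 0.11) positive and Sdc1, syndecan 1 (−0.38 ± 0.16), negative (log2 ± SE). Sdc1 was at −0.23 without NC + TGF-β1 replicate 2 and at −0.12 without the pair. Of 23 collagens 3 did, namely Col1a2, Col27a1 (−0.47 ± 0.20, log2 ± SE) and Col11a1, which held 0 to 1 counts in the siPdcd5 libraries and is given no fold. Col27a1 was at −0.29 without NC + TGF-β1 replicate 2 and at −0.14 without the pair, and held an unadjusted p under 0.05 in 6 of the 12 fits. Of 13 matricellular genes 3 did, namely Postn, Wisp2 and Fbln5. Fbln5 held an unadjusted p under 0.05 in 5 of the 12 fits.

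The TGF-β feedback list had 4 of 26 genes with a p under 0.05 (15.4%), Smad6, Smad7, Tgif1 (−0.66 ± 0.31, log2 ± SE) and Ltbp2, the last with 0 to 1 counts in siPdcd5 libraries. Tgif1, a repressor in the pathway, was at −0.27 without NC + TGF-β1 replicate 2 and at −0.05 without both libraries that stand apart (log2), so that its value rests on them. Mitosis genes had 4 of 26 (15.4%) in both directions, with Aurkb (1.14 ± 0.37), Hmmr (0.50 ± 0.20) and Cenpf (0.42 ± 0.17) positive and Bub1b (−0.92 ± 0.27, log2 ± SE) negative. Aurkb held only 11 to 51 counts per library, so its value rests on few reads. Hmmr and Cenpf held an unadjusted p under 0.05 in 8 each of the 12 fits that leave out 1 library, and Aurkb and Bub1b in all 12. The mitosis list was also one in which the library that stands apart most deviated, with a median of 0.278 in NC + TGF-β1 replicate 2 and 0.041 in siPdcd5 replicate 1 (log2). Without both libraries Aurkb was at 1.18, Hmmr at 0.69 (adjusted p = 0.0474 in edgeR's quasi-likelihood test) and Bub1b at −0.66 (log2), and 9 of the 26 genes (34.6%) had an unadjusted p under 0.05, 8 of them positive, against 16.5% of all genes in that fit. Cholesterol synthesis genes had 3 of 25 (12%), all positive, with Sqle at 0.40 ± 0.12, Hmgcs1 at 0.38 ± 0.15 and Hsd17b7 at 0.33 ± 0.15 (log2 ± SE). Hmgcs1 was at 0.59 without the pair (adjusted p = 0.0108 in edgeR's quasi-likelihood test). Sqle held an unadjusted p under 0.05 in all 12 fits that leave out 1 library, Hmgcs1 in 8 and Hsd17b7 in 6. Interferon genes had 3 of 27 (11.1%), Ifit3 and Gbp3 positive and Rsad2 negative. Gbp3 held an unadjusted p under 0.05 in 4 of the 12 fits, and Rsad2 had only 3 to 56 counts per library.

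With all libraries, the remaining lists were near the share of all genes, with 0 to 2 members at a p under 0.05. Their members were Cct6a and Tubb3 of the chaperonin and tubulin list, Bcl2 and Ccng1 of p53 targets and apoptosis, Spry2 and Klf6 of early response genes, and 1 each for EMT factors and junctions (Jup), chemokines (Il33), YAP targets (Ajuba), G1 regulators (Ccnd3), Wnt targets (Lgr4), contractile genes (Cnn2), glycolysis (Gapdh) and ATF4 targets (Chac1). NRF2 targets and proliferins had 0 of 19 and 0 of 4. Of these, Jup moved from −0.68 to −0.07, Lgr4 from −0.78 to −0.41 and Il33 from −0.40 to −0.24 without the pair, and Spry2 from 0.67 to 0.44 without siPdcd5 + TGF-β1 replicate 2 (log2). Klf6 held an unadjusted p under 0.05 in 2 of the 12 fits that leave out 1 library, Jup in 4 and Ccng1 in 5. Chac1 held one in 7, Spry2 in 8 and the other members named here in 10 to 12. Bcl2, which holds back apoptosis, was at 23.7 to 30.1 CPM in NC, 11.8 to 14.5 CPM in NC + TGF-β1, 25.1 to 31.6 CPM in siPdcd5 and 21.1 to 21.7 CPM in siPdcd5 + TGF-β1, an interaction of 0.62 ± 0.18 (log2 ± SE; 95% interval 0.23 to 1.01). As in Postn, the treated groups were apart and the untreated groups overlapped. Without the pair, 16.5% of all genes had an unadjusted p under 0.05, and the shares of these lists ran from 11.1% (Wnt targets) upward. Chaperonin and tubulin genes had 10 of 23 (43.5%), YAP targets 7 of 17 (41.2%), contractile genes 7 of 19 (36.8%) and glycolysis 8 of 22 (36.4%). Matricellular genes had 6 of 13 (46.2%), so the high share of mitosis genes in that fit was not particular to them.

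**Figure D5:**
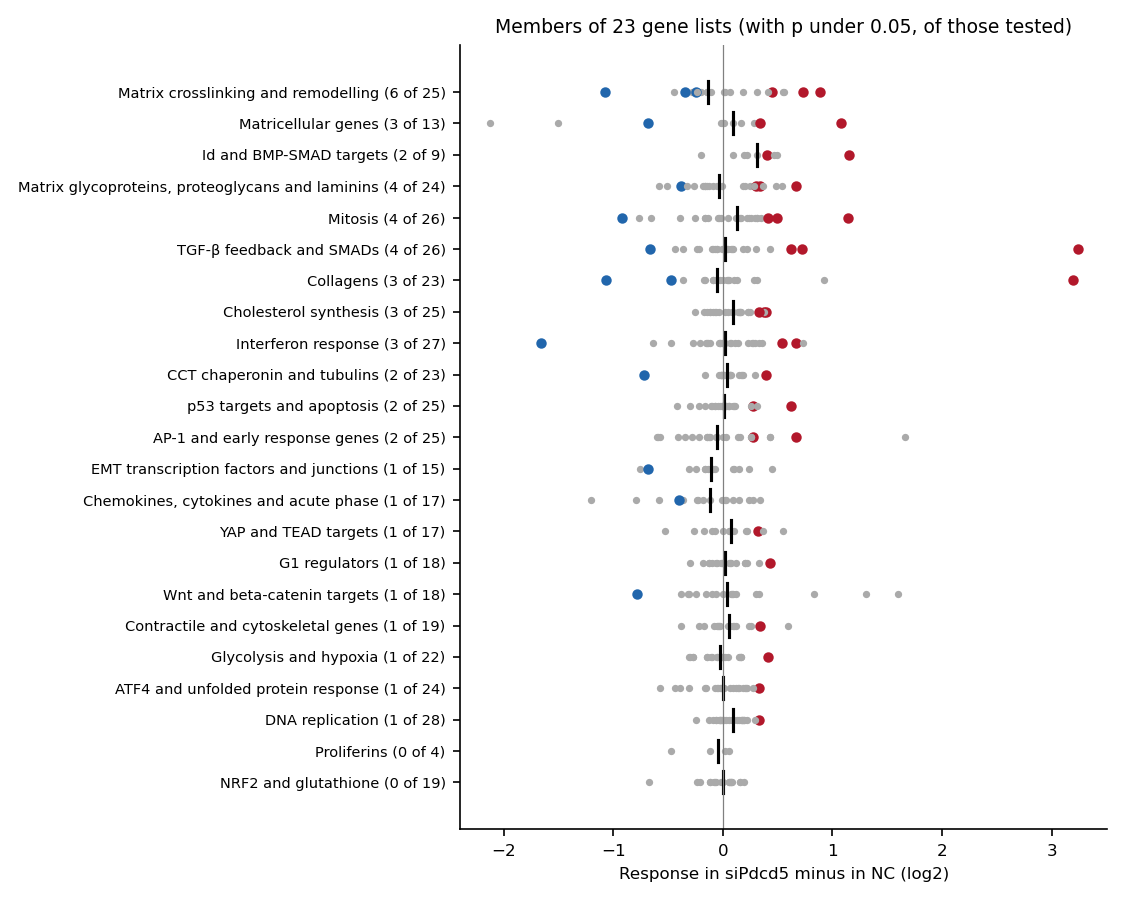
Interaction (log2) of each tested member of 23 gene lists, with the median of each list as a black bar. Members with an unadjusted p under 0.05 are red where positive and blue where negative, and the others grey. The numbers beside each name are members with such a p and members tested. Coloured points lie on both sides of 0 in the matrix, mitosis and interferon lists, and the median of the Id and BMP-SMAD list stands farthest from 0, at 0.31.

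With 3 libraries per group the interaction, which sums the error of 4 group means, was measured coarsely. The median standard error was 0.22 on the log2 scale and the 95% interval reached a median of 0.47 to either side. The whole interval lay within 2-fold of no difference between the responses for 9386 genes (75.5%) and within 1.5-fold for 5301 (42.7%). Below a log2 CPM of 1 it lay within 2-fold of no difference for 8 of 1339 genes. A gene that stood alone would need an interaction of 7.26 standard errors to pass the adjusted threshold, a log2 value of 1.59 (3-fold) at the median standard error. All 24 ranked interactions were smaller than that in size, the largest being Plekhg4. The value a gene needs depends on its own standard error, which was 0.11 for Sod3 and 0.41 for Plekhg4. The 3-fold value therefore does not tell how near each gene came to a call. With errors of this size, the lack of calls does not show that the responses were equal.

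The named genes were then examined by leaving out libraries. Each of the 26 genes kept its sign and an unadjusted p under 0.05 in the 12 fits without 1 library and in 9 other settings of normalization, filter, test and replicate block, as genes ranked by p tend to do. Adjusted p-values were less stable. In edgeR's quasi-likelihood test, 0 genes passed in 11 of the 12 fits without 1 library, and Lxn (adjusted p = 0.022) and Id2 passed without NC + TGF-β1 replicate 2. Of the 15 DESeq2 genes, only Lxn passed in all 12 DESeq2 fits without 1 library, Igf1 and Spag7 passed in 11, Vegfc in 10 and Id2 and Tmem158 in 8, and the other 9 in 0 to 3.

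The 2 libraries that stand apart mattered more. Without both, a choice made after seeing the data that lowers the spread by its own construction, 199 genes passed an adjusted p of 0.05 and 2050 (16.5%) an unadjusted p of 0.05 in edgeR's quasi-likelihood test. Of the 199, 54 had an unadjusted p under 0.05 with all libraries, and the median size of their interactions was 0.63 without and 0.34 with the 2 libraries (log2). With all libraries kept and 1 surrogate variable as a covariate, which was estimated from the same counts and took its lowest values in the same 2 libraries, 37 genes passed and 28 of them were among the 199. The biological coefficient of variation was 0.132 with all libraries, 0.08 without the pair and 0.076 with the covariate. NC + TGF-β1 and siPdcd5 were left with 2 libraries each in the first of these fits.

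Under both of these fits 14 of the 15 DESeq2 genes passed, but not the same 14: Wisp2 was missing without the pair and Cyp26b1 with the covariate. Of the 26 genes, 20 had interactions nearer to 0 without the pair, and the others included Lxn (0.88), Id2 (1.40) and Adamts1 (1.17). Lxn, Id2, Igf1, Spag7, Vegfc and Tmem158 passed the adjusted threshold in both of these fits and in 8 or more of the 12 DESeq2 fits without 1 library, while Plekhg4 and Col1a2 moved by more than 1.5 times when the pair was left out. All of these fits share most of their libraries with the fit that ranked the genes. Passing in several of them is therefore a description and no independent evidence.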

How the data were processed

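The 12 libraries of C22 RNA were made with the QuantSeq 3′ kit. Single-end reads were aligned by the authors (Bowtie2), who took both unique and multiple alignments into the Bedtools counts they deposited, as whole numbers for each gene symbol, with mm10 named in their processing notes. The deposited counts are not normalized, and quantile normalization, which the paper names, is not in them. The reads carry no molecular identifiers, so counting floors cover counting error only, and 3 counts correspond to 0.165 to 0.239 CPM. Nothing in the sources says that replicates came from separate cultures, so p-values measure the spread between these libraries, which may be technical.

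Counts were analysed with R 4.3.3 and edgeR 4.0.16 (default expression filter, TMM factors, a model of 4 groups, quasi-likelihood test of the interaction, Benjamini-Hochberg adjustment), with limma 3.58.1, DESeq2 1.42.0 and sva 3.50.0 as alternatives. Log2 CPM used a prior count of 2. The script was tested on simulated data. Of the listed symbols, 5134 had no read in any library and 44 that repeat another were analysed separately.

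The members, gene lists and tests were chosen with earlier results of these data known. Genes named are the 12 positive and 12 negative interactions with the smallest p at a mean log2 CPM of at least 3, the DESeq2 genes, up to 3 members per list with an unadjusted p under 0.05, the matricellular genes Postn, Ctgf, Thbs2 and Tnc, and Pdcd5, 65 genes in all. Others were named after their values were seen. Alternatives were other scaling factors, quantile normalization, limma-voom, robust estimation, other filters, a replicate block and leaving out each library. Gene positions are from GENCODE for GRCm38 and promoters from RefSeq GRCm38.p6. Certain genes are not reported here.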

Additional observations from a re-analysis of the deposited data

Results flagged for a closer look

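In 7 of the named genes every pairing of a treated with an untreated library gave one sign of the response in NC cells and the opposite sign in siPdcd5 cells. Over all 12425 genes 43 did so (0.346%), and the named genes were ranked by the interaction, which favours this pattern. The differences themselves were tested as interactions, which did not pass an adjusted p of 0.05 in edgeR's quasi-likelihood F test, Benjamini-Hochberg adjusted.

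Spag7 had the smallest p among them, with an interaction of 0.68 ± 0.13 (log2 ± SE). It was at 99.0, 92.2 and 85.6 CPM in NC, 70.5, 68.0 and 63.6 CPM in NC + TGF-β1, 69.4, 69.9 and 78.1 CPM in siPdcd5 and 83.3, 81.7 and 89.2 CPM in siPdcd5 + TGF-β1. Its pairwise responses ran from −0.64 to −0.28 in NC and from 0.07 to 0.36 in siPdcd5 (log2). Gmps, which makes GMP, had an interaction of 0.55 ± 0.14, with responses of −0.18 in NC and 0.36 in siPdcd5. Ccnd3 had 0.43 ± 0.11, with responses of −0.31 and 0.12. Cyp26b1 had 1.35 ± 0.32, with responses of −0.78 and 0.57, on 40 to 115 counts per library.

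Of the negative interactions, that of Tmem158 was −0.84 ± 0.16, with responses of 0.45 in NC and −0.38 in siPdcd5. Stard5, a lipid transfer protein, had −0.62 ± 0.14, with responses of 0.46 and −0.16. Its exons overlap those of Gm45838 on the same strand and of Il16 on the other strand. Mib2, a ubiquitin ligase of Notch ligands, had −0.50 ± 0.13, with responses of 0.15 and −0.35 (each log2 ± SE). Of the 14 responses of these genes, those with an adjusted p under 0.05 in edgeR's quasi-likelihood test were Spag7, Ccnd3, Cyp26b1, Tmem158 and Stard5 in NC and Gmps, Tmem158 and Mib2 in siPdcd5, so that a change of sign with both responses past the threshold was found in Tmem158 alone.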

How the results depend on the processing

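The count of genes with an adjusted p under 0.05 was 0 under upper-quartile and RLE factors, quantile normalization with limma-trend, limma-voom, robust estimation, both other filters and the replicate block, 15 with DESeq2, and 0 to 2 when 1 library was left out. DESeq2 without 1 library, added after seeing the data, gave 5, 4 and 4 genes without NC replicates 1 to 3, 15, 8 and 9 without those of NC + TGF-β1, 10, 14 and 7 without those of siPdcd5, and 4, 7 and 3 without those of siPdcd5 + TGF-β1. A looser adjusted p of 0.25 gave 1 gene, Lxn. Settings chosen after seeing the data gave 199 genes without NC + TGF-β1 replicate 2 and siPdcd5 replicate 1, and 37 with 1 surrogate variable. Genes with an unadjusted p under 0.05 numbered 470 to 911 without 1 library, 2050 without both libraries and 1476 with the surrogate variable. Quantile normalization changed the balance of signs from 294 positive and 344 negative to 385 positive and 249 negative, with the median over all genes at 0.01 in place of −0.03 (log2). None of the 65 named genes changed the sign of its interaction in any setting. Same-numbered libraries of different groups had correlations of deviations from −0.554 to 0.557 over 18 pairs, 6 of them over 0.1, so the numbers do not pair the samples over all groups. Within the NC arm all 3 same-numbered pairs of untreated and treated libraries were over 0.1 (0.146 to 0.317) and the 6 other pairs were not (−0.316 to 0.053). That is a hint from the data and not the labels. In the siPdcd5 arm 2 of 3 same-numbered pairs were over 0.1 (−0.185 to 0.283), and so were 2 of the 6 other pairs (−0.35 to 0.438). The siPdcd5 arm thus gave no such hint. With the replicate block 0 genes passed the adjusted threshold (smallest adjusted p 0.946) and 500 had an unadjusted p under 0.05. With a replicate block in the NC arm alone, chosen after seeing the data, 0 passed (smallest adjusted p 0.288) and 673 had one. Leaving out both libraries lowers the spread by its construction, and the cause of their deviation was not tested. Depth limits the genes below a log2 CPM of 1, whose 95% intervals reached a median of 1.45 to either side (log2).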

Other observations

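Outside the genes named by rule, 11 genes that are described here passed an adjusted p of 0.05 both without the 2 libraries that stand apart and with 1 surrogate variable in edgeR's quasi-likelihood F test, Benjamini-Hochberg adjusted. They were chosen after their values were seen. With all libraries and no covariate, the positive interactions were 0.80 for Ppap2b, a lipid phosphatase, 0.46 for Fscn1, which bundles actin, 0.39 for Ahcyl1, 0.37 for Atp5j, a subunit of the mitochondrial ATP synthase, and 0.28 for Vgll3, a cofactor of TEAD factors (log2). The negative ones were −0.79 for Acot2, a mitochondrial thioesterase, −0.60 for Israa, −0.46 for C430049B03Rik, −0.44 for Timp2, an inhibitor of metalloproteinases, −0.41 for Baiap2, and −0.39 for Ddit3, the stress factor CHOP (log2). Without the 2 libraries that stand apart, Vgll3 was at 0.75, Fscn1 at 0.73, Ahcyl1 at 0.68 and Atp5j at 0.65 (log2). In that fit Israa was at −0.95, Ddit3 at −0.75 and Baiap2 at −0.68 (log2), so the sizes of these genes depend on the pair. With all libraries 4 of the 11, Ppap2b, Acot2, C430049B03Rik and Fscn1, had an unadjusted p under 0.03, Ahcyl1 had one of 0.0393, and the other 6 had p-values of 0.0608 to 0.277. Their intervals with all libraries therefore include 0 for 6 of the 11.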
